A study of Bos taurus with 6 samples.

Results

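The mRNAs described here encode the core machinery that shortens, uncaps and destroys mRNA, in single bovine (Bos taurus) oocytes before and after meiotic maturation. The set has 41 gene symbols: subunits of the CCR4-NOT and PAN deadenylases, decapping factors and exonucleases, the RNA exosome, factors of nonsense-mediated decay, the terminal uridyltransferases ZCCHC6 and ZCCHC11 (TUT7 and TUT4), and PELO. A row was taken wherever the deposited table of 20707 genes carried one of these symbols. That gave 41 rows for 39 symbols, since CNOT11 and EXOSC6 matched no row and SMG5 and ZCCHC11 matched 2 each. At a mean of at least 1 RPKM (reads per kilobase of gene model per 1 M mapped reads) over the 6 libraries, 36 of the 41 rows were tested, among 8671 genes in all.

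GV (germinal vesicle) oocytes, arrested in meiotic prophase, were collected when follicles of abattoir ovaries were aspirated. MII (metaphase II) oocytes had been matured in vitro for 24 h. Each library came from an individual oocyte, with 3 libraries per stage (GV14, GV14c and GV15; MII14c, MII15 and MII15c), and neither breed nor animal is given. The columns GV14c and MII15c match no sample title, and adjusted p-values without both are given for the calls lost that way. Over the 6 titled samples adapter dilution was 1 in 30 or 1 in 10 in GV and 1 in 30 or 1 in 50 in MII, and GV14 and MII14 shared 1 in 30. MII14 has no column, the dilution of the 2 untitled columns is not known, and in the columns that match a title (1 in 30 and 1 in 10 for GV, 1 in 50 for MII) dilution and stage are confounded.

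The kit used for amplification primes cDNA on poly(A) tails. A lower value may therefore be fewer transcripts or shorter tails, and a higher value more transcripts or longer tails. RPKM is also relative to the mapped reads of a library, so values can change as the pool changes. These readings cannot be told apart here, and rose and fell below describe RPKM only. Depth, estimated from the values, ran from 20.22 to 29.92 M reads in GV and from 21.27 to 32.55 M in MII. All 10 oocyte markers listed, among them ZP2, GDF9 and BMP15, averaged at least 1 RPKM in GV, and 9 did in MII, with FIGLA below. Of 13 measured cumulus and granulosa markers, 5 averaged at least 1 RPKM in GV and 4 in MII. Their summed level ran from 92.96 to 162.2 RPKM in GV libraries and from 104.9 to 107.3 in MII libraries, mostly STAR and HAS2. These markers moved in both directions: STAR (mean 101 to 35.4 RPKM) and CD44 (7.03 to 1.80) were called lower in MII, and HAS2 (16.3 to 59.5) and VCAN (3.32 to 7.99) higher. The summed level of the oocyte markers was 5737 to 8816 RPKM in GV and 2801 to 3649 in MII. PTX3 was at 0 in every library, and FSHR and AMH were at 0 in every MII library. The part of other cells in the results was not tested.

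Most mRNA decay begins with removal of the poly(A) tail. The PAN complex (PAN2 and its partner PAN3) trims long tails, and CCR4-NOT, built on the scaffold CNOT1, takes them further. The bared mRNA is then either uncapped by DCP2 and eaten from its 5′ end by XRN1, or degraded from its 3′ end by the exosome. Uridylation of short tails speeds both routes. Oocytes store maternal mRNAs with short tails, make almost no new RNA once grown, and clear part of the store during maturation, and the decay machinery is itself translated from stored mRNAs.

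By complex, 3 of 9 tested CCR4-NOT mRNAs were higher in MII and 1 was lower, both PAN mRNAs were higher, and 4 of 10 tested exosome mRNAs were lower and none higher. The difference between complexes was not tested, and calls varied with coding length over all genes, as given with the lengths of the members. Of 36 tested rows, 9 were higher in MII, 6 were lower and 21 did not pass (limma, adjusted p under 0.05). Over all tested genes, 13.4% were called higher and 26.9% lower. Of the members, 25% were called higher and 16.7% lower. The 15 called, 41.7% of those tested, are near the 40.3% of all genes called in either direction. The median log2 change of the members was 0.00, against -0.16 for all tested genes. Both the median and the split moved with scaling: 12 were higher and 5 lower after median-ratio scaling, 13 and 4 after quantile normalization, and 10 and 4 after scaling to TPM. The stages did not overlap in 12 members that were higher and 9 that were lower in MII, where 19.8% and 32.1% of all tested genes did not overlap. In either direction that is 21 members, 58.3% of those tested, beside 51.9% of all tested genes. ZCCHC11 (mean 0.446 RPKM in GV, 1.6 in MII) and EXOSC5 (11.5 and 0.445) passed the filter only through the stage where they were high. Their place in these counts is therefore not independent of the filter.

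**Figure D1:**
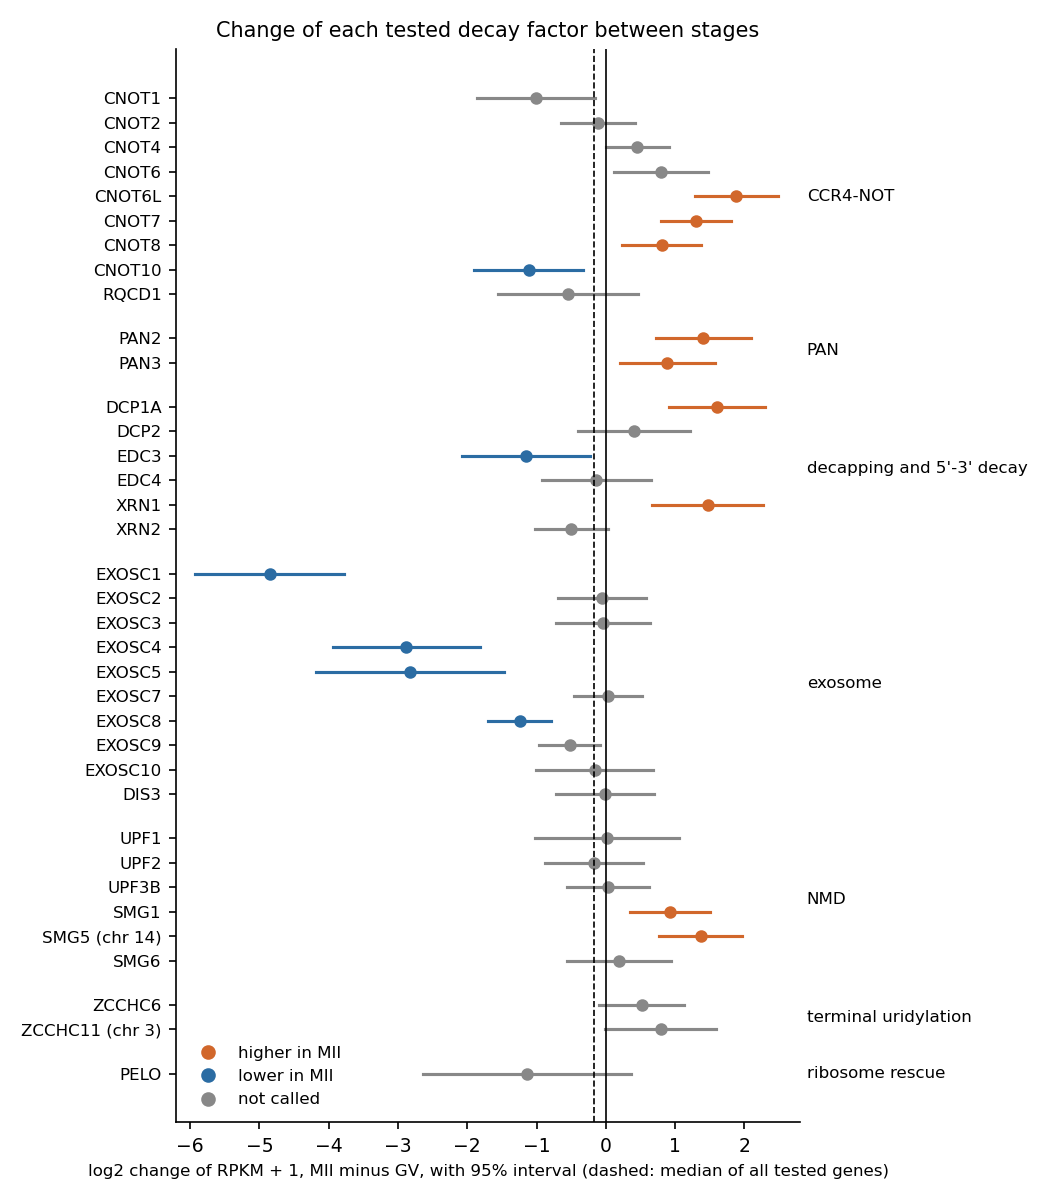
Log2 change of each tested decay factor (MII minus GV, on log2(RPKM + 1)) with its 95% confidence interval, grouped by complex; orange is higher in MII, blue lower, grey not called, and the dashed line is the median of all tested genes. The 4 exosome mRNAs called lower lie furthest left, EXOSC1 at -4.85, and the catalytic CCR4-NOT and PAN mRNAs lie mostly to the right of 0.

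Within CCR4-NOT, the mRNAs of 3 of the 4 deadenylating enzymes, CNOT6L, CNOT7 and CNOT8, rose, beside 13.4% of all tested genes. The complex carries 1 enzyme of the CCR4 type, either CNOT6 or CNOT6L, and 1 of the CAF1 type, either CNOT7 or CNOT8. CNOT6L was at 13.9, 13.7 and 16.9 RPKM in GV14, GV14c and GV15, and at 77.4, 42.7 and 56.8 in MII14c, MII15 and MII15c. Every MII library was above every GV library, and the means differed 3.97-fold (limma log2 change 1.89 ± 0.27, SE; adjusted p = 0.000821). CNOT7 was at 50.8, 39.4 and 57 RPKM in GV and at 104, 129 and 134 in MII, again without overlap. Its log2 change was 1.31 ± 0.22 (SE; limma adjusted p = 0.00207), and with CNOT6L it kept its call under all 19 processing alternatives. CNOT8 was at 25.7, 34.7 and 27.1 RPKM in GV and at 56.3, 38.6 and 61.9 in MII, with a log2 change of 0.81 ± 0.25 (SE; limma adjusted p = 0.0322). The CNOT8 call was lost under 7 alternatives (adjusted p = 0.000145 to 0.131), including without GV14, GV15, MII14c or MII15c (0.107, 0.0921, 0.0853 and 0.131) and without both untitled columns (0.121). CNOT6 was at 4.85, 2.75 and 3.77 RPKM in GV and at 6.74, 7.49 and 7.34 in MII. Its stages did not overlap, but the log2 change of 0.80 missed the threshold (95% interval 0.12 to 1.47; limma adjusted p = 0.0603), and it passed under 6 alternatives, among them the 3 other scalings.

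None of the other subunits was called higher. CNOT1, on which the complex assembles, was at 26.2, 28 and 21.5 RPKM in GV and at 21.4, 6.6 and 11.9 in MII. The stages were separated only by the small gap between GV15 and MII14c, and the log2 change of -1.0 did not pass (95% interval -1.86 to -0.15; limma adjusted p = 0.0605). Without MII14c it passed as lower (adjusted p = 0.0133), as it did with library weights (0.00287) and with the letter c of the library names as a term (0.00537). CNOT10, which with CNOT11 forms a module at the N-terminal end of CNOT1, fell from 29.5, 19.7 and 23.8 RPKM in GV to 16.7, 6.31 and 11 in MII (limma log2 change -1.11 ± 0.35, SE; adjusted p = 0.0312). Its call was lost under 9 alternatives, including without GV14, GV15, MII15 or MII15c (adjusted p = 0.114, 0.0712, 0.0605 and 0.0803), without both untitled columns (0.102), and with quantile or TPM scaling (0.0538 and 0.0601). CNOT2, of the module that helps anchor the complex to repressors, was the most abundant tested CCR4-NOT mRNA in GV at 132, 78.5 and 121 RPKM, and was at 103, 103 and 94.2 in MII, where CNOT7 was higher. Its stages overlapped (log2 change -0.11, 95% interval -0.65 to 0.43).

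The remaining CCR4-NOT mRNAs gave no call. CNOT4, a ubiquitin ligase, was at 65.1, 61.7 and 68.3 RPKM in GV and at 105, 84.4 and 81.1 in MII. Those values did not overlap, and its log2 change of 0.46 (limma adjusted p = 0.102) passed with median-ratio and quantile scaling (0.0389 and 0.023). RQCD1 (CNOT9), which binds adaptor proteins such as GW182, ranged from 14.7 to 48.3 RPKM in GV and from 14.2 to 30.9 in MII. Its log2 change of -0.54 (95% interval -1.55 to 0.46) passed as lower with library weights (limma adjusted p = 0.00227). CNOT3, the partner of CNOT2, averaged 0.859 RPKM in GV and 1.10 in MII and was below the level tested. A row under C2orf29, an older symbol of CNOT11, lies outside the rule and was looked up after the files were seen. It was at 15.8, 22.6 and 15 RPKM in GV and at 26.9, 21 and 42.8 in MII (log2 change 0.69, 95% interval from just below 0 to 1.39; limma adjusted p = 0.104).

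**Figure D2:**
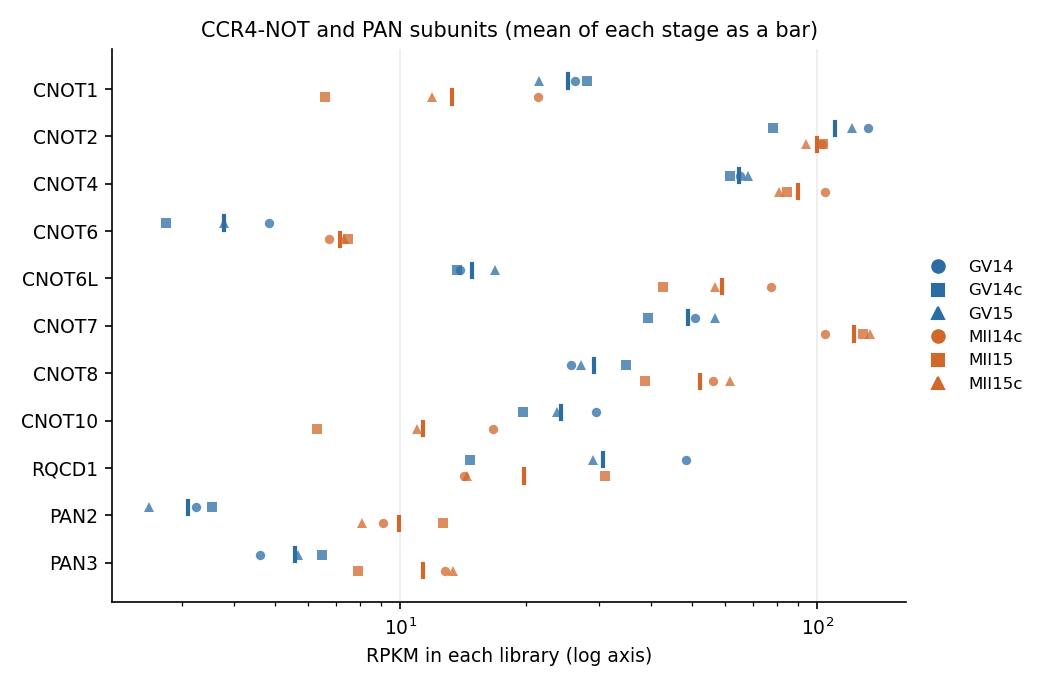
RPKM of CCR4-NOT and PAN mRNAs in each library on a log axis, GV in blue and MII in orange, with 1 symbol shape per library and a bar at the mean of each stage. CNOT6L, CNOT7, CNOT8, PAN2 and PAN3 lie to the right in MII, CNOT10 lies to the left, and the values of CNOT2 and RQCD1 overlap.

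Both PAN mRNAs were higher in MII, beside 13.4% of all tested genes. PAN2, the catalytic subunit, rose from 3.24, 3.55 and 2.49 RPKM in GV to 9.09, 12.7 and 8.11 in MII (limma log2 change 1.41 ± 0.30, SE; adjusted p = 0.00602). That call held under all 19 alternatives. PAN3, the adaptor that recruits PAN2 to the poly(A)-binding protein, was at 4.6, 6.48 and 5.68 RPKM in GV and at 12.8, 7.94 and 13.4 in MII (limma log2 change 0.89 ± 0.30, SE; adjusted p = 0.0437). Its stages did not overlap, but the call was lost under 8 alternatives. Without GV14, GV14c, GV15, MII14c or MII15c the adjusted p was 0.144, 0.0576, 0.0951, 0.111 or 0.159, and without both untitled columns it was 0.19.

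Decapping and 5′-end decay factors moved in both directions, with 2 of 6 tested mRNAs higher and 1 lower. The shares over all tested genes were 13.4% higher and 26.9% lower. DCP1A, an activator of the decapping enzyme, rose from 4.66, 8.28 and 4.29 RPKM in GV to 21.9, 18.9 and 16.1 in MII (limma log2 change 1.60 ± 0.31, SE; adjusted p = 0.00356), a call that held under all 19 alternatives. Its paralog DCP1B was listed at 0 in all GV libraries and in MII15, and at 0.017 and 0.049 in the other MII libraries, which is about 0.9 and 2.8 reads at its coding length. XRN1, the cytoplasmic exonuclease that degrades uncapped mRNA, rose from 11.7, 8.84 and 11.8 RPKM in GV to 44.7, 17.7 and 38.6 in MII (limma log2 change 1.47 ± 0.35, SE; adjusted p = 0.0101). MII15 was the lowest of the 3 MII values, and without MII15c the call was lost by a small margin (adjusted p = 0.0505), as it was without both columns that match no title (0.114). EDC3, an enhancer of decapping that links decapping factors together, fell from 21.8, 28.5 and 21.7 RPKM in GV to 19.5, 5.15 and 9.95 in MII (limma log2 change -1.15 ± 0.41, SE; adjusted p = 0.0491). That call was the least stable of the set and was lost under 13 of 19 alternatives (adjusted p = 0.00262 to 0.243), including without GV14, GV14c, GV15, MII15 or MII15c (0.1, 0.127, 0.0845, 0.103 and 0.121) and without both untitled columns (0.243).

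The decapping enzyme itself gave no call. DCP2 was at 20.8, 24.4 and 14.9 RPKM in GV and at 41.3, 15.7 and 27.8 in MII, and the stages overlapped (log2 change 0.40, 95% interval -0.41 to 1.21). XRN2, the nuclear counterpart of XRN1, was at 26.5, 28.5 and 25.9 RPKM in GV and at 23, 15.8 and 18.3 in MII. Its stages did not overlap, and its log2 change of -0.50 did not pass (limma adjusted p = 0.125), but passed as lower with library weights (0.0196). EDC4, a large scaffold of decapping, was at 1.3, 2.6 and 0.748 RPKM in GV and at 1.58, 0.981 and 1.13 in MII, the lowest levels among the tested mRNAs of this group. DCPS, the scavenger that hydrolyses the cap left by the exosome, was at 0.171 to 0.723 RPKM and was not tested.

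The largest differences of the set were in the RNA exosome, where 4 of 10 tested mRNAs fell and none rose. The shares over all tested genes were 26.9% lower and 13.4% higher. The exosome is a ring of 6 subunits (EXOSC4 to EXOSC9) under a cap of 3 (EXOSC1, EXOSC2 and EXOSC3), and its nucleases are DIS3 and EXOSC10. EXOSC1 was at 81.1, 116 and 101 RPKM in GV and at 4.18, 0.459 and 4.44 in MII, and the means differed 32.9-fold (limma log2 change -4.85 ± 0.48, SE; adjusted p = 0.000121). EXOSC4 fell from 18.1, 21.2 and 11.2 RPKM to 2.92, 0.161 and 1.83 (limma log2 change -2.88 ± 0.47, SE; adjusted p = 0.00165). EXOSC8, the most abundant member in GV, fell from 415, 373 and 505 RPKM to 162, 196 and 184 (limma log2 change -1.24 ± 0.20, SE; adjusted p = 0.00158). For these 3 mRNAs all GV libraries lay above all MII libraries, and the calls held under all 19 alternatives. EXOSC5 was at 10.6, 21.1 and 2.72 RPKM in GV and at 0.993, 0 and 0.343 in MII (limma log2 change -2.83 ± 0.60, SE; adjusted p = 0.00575). The GV values of EXOSC5 spread widely, GV15 was the lowest of them, and the call was lost without both columns that match no title (adjusted p = 0.0562). EXOSC5 averaged 0.445 RPKM in MII and so passed the filter only through GV.

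The other 6 exosome mRNAs gave no call. EXOSC7, a ring subunit, was at 111, 73.9 and 96.4 RPKM in GV and at 90.9, 103 and 89.9 in MII (log2 change 0.03, 95% interval -0.46 to 0.52). The cap subunits EXOSC2 and EXOSC3 averaged 9.95 ± 2.06 and 8.87 ± 2.24 RPKM in GV and 9.49 ± 1.65 and 8.48 ± 1.59 in MII (SD, n = 3). Their 95% intervals were -0.69 to 0.58 and -0.72 to 0.63, and no difference from the exosome mRNAs called lower was tested. Both nucleases overlapped between stages. DIS3 was at 12.3, 9.56 and 18 RPKM in GV and at 17.1, 11.4 and 10.7 in MII (log2 change -0.01, 95% interval -0.71 to 0.70). EXOSC10 was at 22, 19.4 and 15.4 RPKM in GV and at 27.8, 9.23 and 17.6 in MII (log2 change -0.16, 95% interval -1.01 to 0.68). EXOSC9 went from 221, 185 and 242 RPKM to 162, 146 and 140 without overlap (log2 change -0.52; limma adjusted p = 0.0607). It passed without GV14c (0.0427) and with library weights (0.00196).

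EXOSC8 was the most abundant exosome mRNA at both stages, and the order below it differed. In GV the tested exosome mRNAs ran from 8.87 RPKM (EXOSC3) to 431 RPKM (EXOSC8), and in MII from 0.445 (EXOSC5) to 181 (EXOSC8). The mRNA of EXOSC1 stood at percentile 91.4 of tested genes in GV and at percentile 33.1 in MII. EXOSC5 moved from percentile 56.7 to 4.08, and EXOSC7 stood at 90.8 and 92.3. The summed RPKM of the exosome rows was 909.5, 840 and 1008 in GV and 482.9, 487.2 and 466.4 in MII, most of it from EXOSC8 and EXOSC9. The summed RPKM of the CCR4-NOT rows was 397.1, 294.8 and 368.8 in GV and 505.3, 449 and 474.5 in MII.

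**Figure D3:**
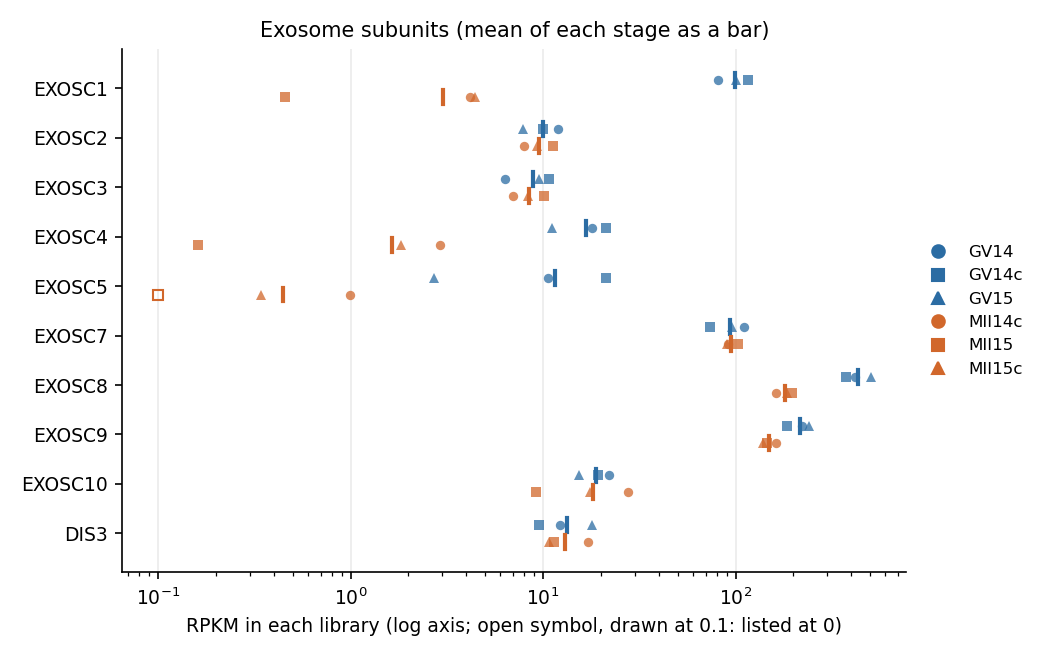
RPKM of the tested exosome mRNAs in each library on a log axis, GV in blue and MII in orange, with a bar at the mean of each stage; the open symbol marks EXOSC5 in MII15, which is listed at 0 and drawn at 0.1. EXOSC1, EXOSC4, EXOSC5 and EXOSC8 are separated between stages with MII lower, and EXOSC2, EXOSC3, EXOSC7, EXOSC10 and DIS3 overlap.

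Of the nonsense-mediated decay factors, 2 of 6 tested rows were higher and none lower, beside 13.4% and 26.9% of all tested genes. SMG1, the kinase that phosphorylates UPF1, rose from 9.61, 7.54 and 7.2 RPKM in GV to 17.7, 14.8 and 16.4 in MII (limma log2 change 0.93 ± 0.26, SE; adjusted p = 0.0182). The SMG1 call was lost under 4 alternatives, with GV15 (adjusted p = 0.0643), MII14c (0.0514) or MII15c (0.0674) left out and without both columns that match no title (0.132). UPF1, the central helicase of the pathway, was near the lower limit at 2.03, 1.21 and 0.454 RPKM in GV and 3.12, 0.495 and 0.622 in MII, and its stages overlapped. UPF2, which bridges UPF1 to the exon junction complex, averaged 43.0 ± 10.8 RPKM in GV and 39.0 ± 14.6 in MII (SD, n = 3). UPF3B, its partner at the junction complex, averaged 27.8 ± 1.79 and 29.3 ± 9.32 RPKM, and SMG6, the endonuclease, 1.94 ± 0.352 and 2.44 ± 1.09 RPKM. None of these 4 passed limma's test.

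The other row called higher is an unnamed gene that carries the symbol SMG5. It was at 84.6, 128 and 70.3 RPKM in GV and at 235, 197 and 290 in MII (limma log2 change 1.37 ± 0.27, SE; adjusted p = 0.00385), and its call held under all 19 alternatives. In the deposited annotation, whose build is not given in the sources used here, it is 1 coding exon of 2970 nt on chromosome 14 (56787218 to 56790187, minus strand). Of 20849 reads counted in support of it there, 6 were spliced. The second SMG5 row has 22 coding exons and 3051 nt on chromosome 3 (14569573 to 14595780). That row averaged 0.816 ± 0.509 RPKM in GV and 0.418 ± 0.350 in MII (SD, n = 3) and was below the level tested. It is therefore not shown that the mRNA of SMG5, which recruits decay enzymes to UPF1, rose, and reads may be shared between copies. Without the copy on chromosome 14, 8 members were higher.

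Terminal uridyltransferase mRNAs were not called. ZCCHC6 was at 19.2, 16.9 and 22 RPKM in GV and at 36.5, 20.5 and 29.4 in MII (log2 change 0.52, 95% interval -0.09 to 1.13; limma adjusted p = 0.158). It passed without MII15 (0.0414), with median-ratio and quantile scaling (0.0387 and 0.038) and with library weights (0.0121). ZCCHC11 on chromosome 3, with 29 coding exons, was at 0.484, 0.196 and 0.657 RPKM in GV and at 1.49, 0.704 and 2.61 in MII, without overlap (log2 change 0.79, 95% interval -0.01 to 1.59). It passed under 3 alternatives, without MII15 (0.0395), with quantile normalization (0.0178) and with library weights (0.00145). The second ZCCHC11 row, on chromosome 21 with 3 coding exons, was at 0 to 0.727 RPKM and was not tested. PELO, which rescues stalled ribosomes and so gives the exosome access to broken mRNAs, was at 12.9, 15.1 and 5.17 RPKM in GV and at 6.93, 0.643 and 8.98 in MII. Its stages overlapped, and its log2 change of -1.14 had a wide 95% interval of -2.64 to 0.36 (limma adjusted p = 0.203). It passed as lower with the letter c as a term (0.00594).

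Shares within pairs of related mRNAs do not change when a library is scaled by a single factor, and 6 pairs were compared. XRN1 made up 30.7%, 23.7% and 31.3% of the summed RPKM of XRN1 and XRN2 in GV and 66.1%, 52.9% and 67.9% in MII. The cytoplasmic exonuclease was thus the less abundant mRNA of the pair in every GV library and the more abundant in every MII library. CNOT6L made up 79.7% ± 4.88 of its pair with CNOT6 in GV and 88.5% ± 3.47 in MII (SD, n = 3), without overlap. ZCCHC6 made up 97.8% ± 0.911 of its pair with ZCCHC11 in GV and 94.9% ± 2.63 in MII, also without overlap. Each of these 3 pairs gave a two-sided exact permutation p of 0.1 (0.2 after Benjamini-Hochberg adjustment over the 6 pairs), and 3 libraries against 3 can give none smaller. CNOT7 made up 62.5% ± 8.11 of its pair with CNOT8 in GV and 70.1% ± 6.19 in MII (exact permutation p = 0.4), and DCP1A made up at least 99.7% of its pair with DCP1B in every library. DIS3 made up 40.9% ± 11.3 and 43.7% ± 10 of its pair with EXOSC10 (exact permutation p = 0.5).

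**Figure D4:**
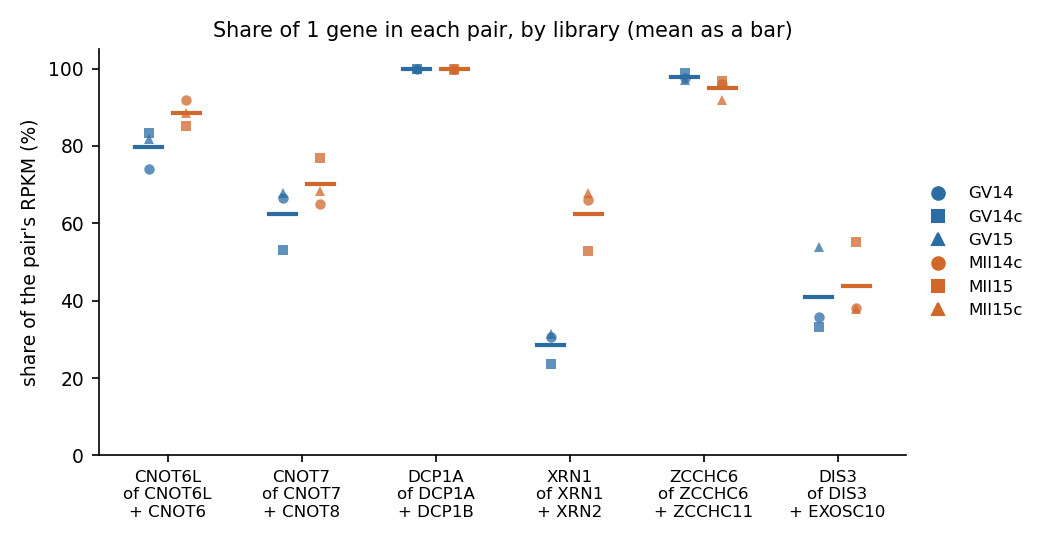
Share of the first gene in the summed RPKM of each of 6 pairs, in percent, for each GV (blue) and MII (orange) library, with bars at the means. XRN1 goes from a mean of 28.6% to 62.3% of its pair, and the stages overlap for CNOT7, DCP1A and DIS3.

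Coding length varied with the change across all genes and sets a level to read the members against. Of tested genes with 501 to 1000 nt of coding sequence, 36% were lower and 10.7% higher in MII, and of those above 4000 nt 4.47% were lower and 18.1% higher. Exosome mRNAs are short, with a median of 853.5 nt, and EXOSC1, EXOSC4, EXOSC5 and EXOSC8 have 588, 738, 708 and 831 nt. Their bin had a median log2 change of -0.48 over all genes, above the changes of these 4. It holds 7 of the 10 tested exosome mRNAs, 4 of them lower, beside 36% of all genes in it. EXOSC2, EXOSC3 and EXOSC7, at 882, 828 and 876 nt, lie in the same bin with changes of -0.06, -0.05 and 0.03, and CNOT7 and CNOT8, at 858 and 879 nt, rose. These genes also differed in how far transcript records reach past the coding end on the 3′ side, and calls varied with that reach. At a reach of 0 nt, 18.6% of all tested genes were lower and 7.36% higher, and at 1 to 250 nt 43.1% and 6.74%. The shares were 33.4% and 10.7% at 251 to 1000 nt, 17.2% and 19% at 1001 to 5000 nt, and 21.3% and 15.8% beyond. The reach was 291, 1202, 361 and 234 nt for EXOSC1, EXOSC4, EXOSC5 and EXOSC8. It was 3427, 929, 184, 2480 and 664 nt for EXOSC2, EXOSC3, EXOSC7, CNOT7 and CNOT8. Of the 14 tested members above 2500 nt of coding sequence none was lower and 4, PAN2, XRN1, SMG1 and the SMG5 copy, were higher. Of all tested genes with 2501 to 4000 nt of coding sequence, 8.68% were lower and 19% higher, beside the shares above 4000 nt already given. Across genes, Spearman's rho of length with change was 0.29 for 8469 tested genes and 0.37 for the 36 members; these genes share the same 6 libraries. The part of length or of 3′ reach in the changes of the members was not tested.

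**Figure D5:**
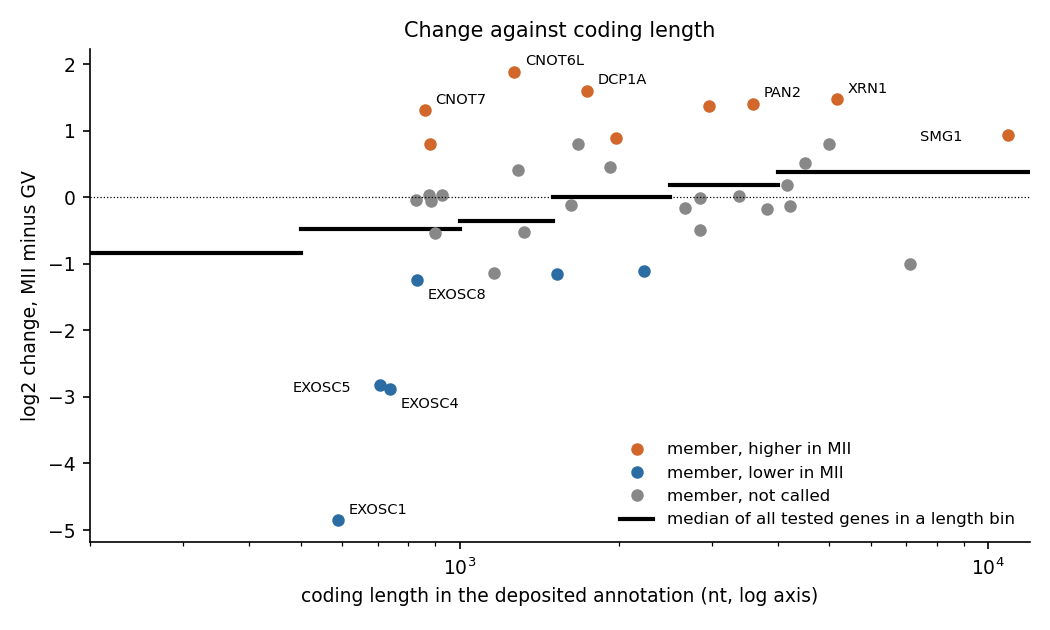
Log2 change (MII minus GV) of each tested member against its coding length in nt on a log axis, colored by call, with black bars at the median of all tested genes in each length bin. The bars go from -0.84 in genes of up to 500 nt to 0.38 above 4000 nt; EXOSC1, EXOSC4 and EXOSC5 lie well below the bar of their bin, and CNOT7 lies above it.

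The deposited annotation, extended with transcripts discovered in the authors' reads, gives the place of the members the results turn on. EXOSC1 lies on chromosome 26 from 18522590 to 18528923, on the minus strand, with 8 coding exons. EXOSC4 has 3 coding exons on chromosome 14 (1947240 to 1949015, minus strand), and 1 of its 3703 supporting reads was spliced. CNOT6L has 8 on chromosome 6 (94177394 to 94217673, minus strand), and CNOT7 has 6 on chromosome 27 (19054191 to 19066002, plus strand). XRN1 has 42 on chromosome 1 (127592003 to 127699862, plus strand). PAN2 has 25 on chromosome 5 (57339701 to 57352047, plus strand), and DCP1A has 10 on chromosome 22 (48203802 to 48243945, plus strand). EXOSC8 has 11 on chromosome 12 (24708475 to 24717609, minus strand). These are coding spans, counted from 1. None of the coding spans of the members overlapped that of another gene. Transcript records reached between 0 and 13404 nt past the coding end on the 3′ side, PELO the furthest.

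Partners of this machinery were counted from 4 further lists. Among genes listed as adaptors or other deadenylases, 6 were tested, 2 were higher and 1 lower. Being listed does not show that a gene's product is an active deadenylase. TOB1, an adaptor that brings CCR4-NOT to mRNAs, fell from 74.2, 38.5 and 55.6 RPKM in GV to 10.1, 12.4 and 12.7 in MII (limma log2 change -2.12 ± 0.28, SE; adjusted p = 0.000582), under all 19 alternatives. BTG4, the oocyte adaptor of CNOT7 and CNOT8, was at 9992, 8938 and 14209 RPKM in GV and at 14397, 27255 and 19633 in MII (limma adjusted p = 0.0488). The CNOT7 mRNA was thus far less abundant per length than that of its adaptor at both stages. CCRN4L (nocturnin) rose by 1.01 on the log2 scale (limma adjusted p = 0.0271). The BTG4 call was lost under 9 alternatives, and leaving out GV14, GV14c, MII15 or MII15c was among them (adjusted p = 0.127, 0.134, 0.133 and 0.136), as was leaving out both untitled columns (0.318). That of CCRN4L was lost under 7, including without GV14, GV14c, GV15, MII15 or MII15c (0.0647, 0.0585, 0.0756, 0.0523 and 0.117) and without both untitled columns (0.199).

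Among decapping activators and other cap hydrolases, 8 genes were tested, of which 1 fell and 1 rose. PATL2, an oocyte relative of the decapping activator PATL1, fell from 27.3, 25.5 and 17.8 RPKM to 5.45, 0.891 and 4.09 (limma log2 change -2.61 ± 0.45, SE; adjusted p = 0.00221), under all 19 alternatives. NUDT12, which hydrolyses NAD caps, rose by 1.40 on the log2 scale (limma adjusted p = 0.00482), a call lost without both untitled columns (0.0528). Of 14 tested exosome cofactors and related nucleases, 2 fell and 3 rose. WDR61, a subunit of the Ski complex that feeds mRNA to the cytoplasmic exosome and of the nuclear PAF1 complex, fell from 303, 267 and 306 RPKM to 120, 87.6 and 108 (limma log2 change -1.47 ± 0.20, SE; adjusted p = 0.000674). RBM7, of the nuclear exosome targeting complex, and HBS1L, the partner of PELO, rose by 1.17 and 0.91 on the log2 scale (limma adjusted p = 0.00271 and 0.00715). The HBS1L call was lost without both untitled columns (0.0794). The other calls, chosen for mention once their values were known, were MPHOSPH6 (log2 change -0.93) and C1D (1.85), both nuclear exosome cofactors. MPHOSPH6 did not pass after median-ratio scaling (adjusted p = 0.135) or without both untitled columns (0.0944). The stages of C1D overlapped, and its call was lost without GV14, GV15, MII14c or MII15c (adjusted p = 0.0977, 0.0926, 0.0876 and 0.123) and without both untitled columns (0.0522).

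Among partners of nonsense-mediated decay and the exon junction complex, 12 genes were tested, 2 fell and 3 rose. ETF1, the release factor that recognises stop codons, fell from 5.81, 3.99 and 6.82 RPKM to 1.08, 1.04 and 0.785 (limma log2 change -1.71 ± 0.31, SE; adjusted p = 0.00277). It averaged 0.965 RPKM in MII and so passed the filter only through GV. Its place in these counts, and in those over the 4 lists, is therefore not independent of the filter. GSPT1, the GTPase partner of ETF1, fell from a mean of 40.8 to 23.5 RPKM. That call did not hold without GV14, GV15 or MII15c (adjusted p = 0.0662, 0.106 and 0.1) or without both untitled columns (0.128), nor with the 3 other scalings. MAGOH, of the exon junction core, rose from a mean of 590 to 1114 RPKM (log2 change 0.91; limma adjusted p = 0.0121), lost without MII15c (0.0608) and without both untitled columns (0.0818). UPF3A and NBAS, also chosen once their values were known, rose by 1.13 and 1.02 on the log2 scale. With GV15, MII14c or MII15c left out the adjusted p was 0.133, 0.0968 and 0.149 for UPF3A and 0.115, 0.129 and 0.0799 for NBAS. UPF3A was also lost without GV14c (0.0655) and NBAS without GV14 (0.14), and without both untitled columns the values were 0.204 and 0.0744. Over the 4 lists, 9 of 40 tested rows were higher and 6 lower, with a median log2 change of 0.19. Over all tested genes, the level to read each list against, 13.4% were higher and 26.9% lower, with a median of -0.16.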

How the data were processed

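The authors deposited RPKM values per gene and library, per the file headers, with human ortholog symbols beside Ensembl identifiers. The submitters' processing notes name DESeq without its role, and which aligner, counter and build were used is not given in the sources used here. Coordinates come from the deposited annotation. Coding blocks less than 30 nt apart were joined into 1 exon.

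Genes averaging 1 RPKM or more were tested with limma 3.58.1 (R 4.3.3; lmFit, eBayes with trend) on log2(RPKM + 1), MII against GV over all 6 libraries, with Benjamini-Hochberg adjustment over all 8671 tested genes and a threshold of 0.05. This scale understates changes of low genes. No pairing or covariate was used. Shares of pairs were compared by exact permutation (scipy 1.17.1). The limma fit was tried on simulated data with noise drawn independently for each gene. Differences shared by the genes of a library were not simulated. Depth was estimated from the steps of low RPKM values of 3452 genes whose model is coding sequence alone. At the depths found, 97.8% to 99.5% of low values lay within 0.1 of a whole read. Reads were amplified without molecular identifiers, so depth limits counting error only.

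Stage comes from titles and the stage label, although another label calls every sample matured in vitro. The titles GV15c and MII14 match no column. Nothing says that the libraries come from different animals, or whether a name ending in c is a repeat of another, so p-values measure the spread between libraries only. The members and lists were chosen with earlier results of these data known. Every member is named. Values by library are given for called members without overlap, for both members of a pair and for the most and least abundant of each complex, with up to 3 called genes of smallest p per further list and BTG4. There were 19 alternatives: pseudocounts, filters, scalings, libraries left out, weights, covariates and eBayes options.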

Additional observations from a re-analysis of the deposited data

How the results depend on the processing

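Of the 15 members called, 8 kept their call under all 19 alternatives: CNOT6L, CNOT7, PAN2, DCP1A and the SMG5 copy as higher, EXOSC1, EXOSC4 and EXOSC8 as lower. No call of a member changed direction under any alternative. Leaving out 1 library gave 4 to 7 members lower and 5 to 11 higher, with 5 higher without MII15c, and 1749 to 2246 genes lower and 588 to 1335 higher over all genes (763 without GV14, 762 without GV15, 588 without MII15c). With both columns that lack a title left out, 3 members were lower and 5 higher, and 1286 genes lower and 357 higher. With library weights 10 members were lower and 2262 genes higher, and with quantile normalization 2087 genes were higher. Scaling by median ratio, by quantiles or to TPM moved the median of all genes from -0.16 to 0.07, 0.22 or -0.05 (log2), and the share of calls that were lower from 66.7% to 54.6%, 46.4% or 60%. The number 14 or 15 of the library names as a replicate block gave 4 members lower and 8 higher; nothing says that this number pairs samples. The share of DIS3 in its pair differed by 2.84 points (MII minus GV) and by -2.94 to 9.31 points when 1 library was left out, with -1.08 without GV14c and -2.94 without MII15. The share of DCP1A changed by -0.252 points after quantile normalization and that of ZCCHC6 by -0.941 without both columns that match no title. UPF1, EDC4 and ZCCHC11 were at a few RPKM or less, which limits what could be detected there. At coding length, about 31.1 to 328.1 reads per library lay behind UPF1, 63.8 to 295.4 behind EDC4 and 26.4 to 425 behind ZCCHC11. In MII14c, MII15 and MII15c the reads were 21.9, 0 and 7.9 for EXOSC5, and 67.1, 2.5 and 44 for EXOSC4. For EXOSC1 they were 76.4, 5.7 and 85. MII15 was the lowest MII library for 23 of 36 tested members (56.9% of all tested genes).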
